A study of Mus musculus with 27 samples.

Results

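The genes described here are the neighbours of C3, the gene of complement component 3, on mouse chromosome 17. They were chosen by position and by expression level: every gene of chromosome 17 whose lowest annotated start lies between 50 and 65 Mb (GRCm38) and whose mean count over 27 retinal libraries was at least 20, leaving out C3 itself and 2 genes whose symbols mark them as ribosomal protein or respiratory chain genes. Of the 227 genes annotated in the window, 67 were members and 157 fell under the mean count, against 55487 genes in the annotation as a whole. The counts that chose the members were means over all libraries, without regard to genotype. The window was placed around C3, and it was chosen with earlier results of these data known. A gene could still pass through 1 genotype only. Gm17168 held 1002 counts over 14 libraries with intact C3 (C3+/+) and 52 over 13 without it (C3-/-), and passed through the former. Vmn2r118 (256 and 610 counts) and Catsperd (182 and 501) passed through the C3-/- libraries. Just inside the limit lay AC026385.1 at a mean count of 21.6 and Adgre1 at 24.2, and just outside it Gm16712 at 16.4 and AC060761.1 at 18.6. The first member along the chromosome was Plcl2 (start 50509403) and the last was Man2a1 (start 64600736), and 57 members lay before C3 and 10 after it.

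Each library was made from 100 ng of total RNA of the retina of a mouse at 9 months of age, by a kit that reads only the 3′ end of each mRNA. The mice came from 4 genotypes: 7 wildtype (Gne+/+ C3+/+), 7 Gne+/- (1 working copy of Gne, the gene of the enzyme that starts sialic acid synthesis), 7 C3-/- (Gne+/+ with no working C3) and 6 Gne+/- C3-/-. The cross with a complement knockout was made, per the series' design text, to ask whether what is seen in Gne+/- retinas depends on complement. Both C3-/- groups together held 13 libraries and both C3+/+ groups 14, spread over 2 sequencing runs as 8 and 5 against 10 and 4. The design text describes the C3-/- mouse as a complete knockout, so C3 is lost in all tissues, and the strain background of each line is not given in the sources used here.

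C3 is the central protein of the complement cascade, cleaved to tag cells and synapses for removal, and in the retina glia and pigment epithelium are among its sources. Genes on the same stretch of a chromosome are inherited together, so mice selected for an altered C3 can also carry the sequence next to it from the line in which it was made. Whether a neighbour's level follows the loss of C3 or follows linked sequence cannot be told apart in this design, and the sequence of these mice around C3 was not measured here.

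The promoters of the called neighbours for which RefSeq has an entry are shown here, because the members were chosen by their place in the genome. RefSeq's table (GRCm38.p6) matched 53 of the 67 members, and 2 of the 4 members whose level changed with the C3 genotype. The stretches are the bases of RefSeq's promoter window that lie upstream of the annotated gene, written 5′ to 3′ on the gene's own strand. Bases between the start of the annotated gene and RefSeq's own start of transcription were left out. The windows compared were cut to the same length from their upstream end. Capitals mark matches, on either strand, to CCAAT or GGGCGG.
Pot1b, chr17:55712629-55712874, minus strand: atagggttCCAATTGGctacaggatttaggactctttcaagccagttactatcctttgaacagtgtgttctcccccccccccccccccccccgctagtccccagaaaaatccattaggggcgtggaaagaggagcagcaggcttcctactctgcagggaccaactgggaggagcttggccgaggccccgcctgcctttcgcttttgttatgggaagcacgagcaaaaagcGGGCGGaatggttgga
Kat2b, chr17:53566721-53566860, plus strand: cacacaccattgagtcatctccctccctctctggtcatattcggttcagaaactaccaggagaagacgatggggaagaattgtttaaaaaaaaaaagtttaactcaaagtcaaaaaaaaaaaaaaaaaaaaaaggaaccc
The Pot1b stretch held 2 matches to CCAAT, 1 on each strand and overlapping each other, and 1 match to GGGCGG, which 33.6% and 32.2% of 32851 promoter windows of that length held. The Kat2b stretch, cut to 140 bases, held neither, against 18.7% and 15.3% of windows of its length. The Kat2b bases next to RefSeq's start were not searched, so nothing is said of matches there. TATAAA was found in neither stretch, against 12.3% of windows of the Pot1b length and 6.89% of the Kat2b length. Both stretches carry a long run of 1 base. The Pot1b stretch has 21 C in a row, a length that 0.545% of promoter windows reach with some base, and the Kat2b stretch has 22 A in a row, which 0.177% reach. A match says only that these letters stand in the window of the reference genome; the sequence of these mice was not read here.

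The libraries held 13528183 to 34170608 counts each, and the 67 members together took 0.252% to 0.373% of them. Levels are given as CPM, counts scaled to a library of 1000000 with edgeR's TMM factors, and differences come from 1 edgeR quasi-likelihood fit over 17409 genes with a term for the run, with p-values adjusted by Benjamini-Hochberg over all of these genes and called under 0.05. The targeted genes followed their labels: C3 measured 53.9 to 285.1 CPM in the 14 C3+/+ libraries and 0 to 3.60 CPM in the 13 C3-/- libraries (log2 difference -6.99, SE 0.46, edgeR adjusted p = 7.11e-10), and Gne fell by 1.58 on the log2 scale in Gne+/- mice (SE 0.10, edgeR adjusted p = 2.2e-13). Retinal identity was seen in all libraries, with 8 of 8 rod markers found and a summed rod marker level of 26900 to 70800 CPM. Lens markers summed to 1.18 to 1760 CPM in C3+/+ and 1.26 to 164 CPM in C3-/- libraries, with Cryba1 listed at 0 in all of them. Bipolar cell markers summed to a median of 3150 CPM in C3+/+ and 3790 CPM in C3-/- libraries of run 1, and to 2810 and 2820 CPM in run 2. Pigment epithelium markers, with Lrat listed at 0, summed to 201 to 778 CPM (median 399) in C3+/+ and 400 to 736 CPM (median 553) in C3-/- libraries of run 1, and to medians of 91.2 and 104 CPM in run 2. Rod markers had medians of 59100 and 51400 CPM in run 1 and 29900 and 31900 CPM in run 2. Over 4 genes of the Y chromosome, the mean level passed 10 CPM in 2 of 10 C3+/+ libraries in run 1 and in 4 of 4 in run 2, and in 6 of 8 and 2 of 5 C3-/- libraries. With the Y-linked level as a covariate the 4 neighbours described below were still called; the part of the lens, bipolar cell, pigment epithelium and rod levels in their differences was not tested.

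Of the 67 neighbours of C3, 4 changed with the C3 genotype over both Gne genotypes: Pot1b rose, and Kat2b, Slc25a41 and Gm17168 fell. That is 5.97% of members, where 0.569% of all genes tested were called (0.287% higher and 0.281% lower). Gm17168 is among the 4 and reached the mean count through its C3+/+ libraries only. The members were also chosen with earlier results of these data known, so this share is not free of their choice. The other 63 members did not pass the test. The median log2 difference over the members was 0.02, with quartiles of -0.10 and 0.16, against a median of 0.00 over all genes tested, and the median size of the difference was 0.15 for members and 0.17 for all genes. At an unadjusted p under 0.05 there were 8 members, 11.9%, where all genes gave 7.67%. Differences of most members were small, as they were over all genes. Under 0.25 on the log2 scale in either direction stood 42 of the 67 members and 10873 of the 17409 genes tested.

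**Figure D1:**
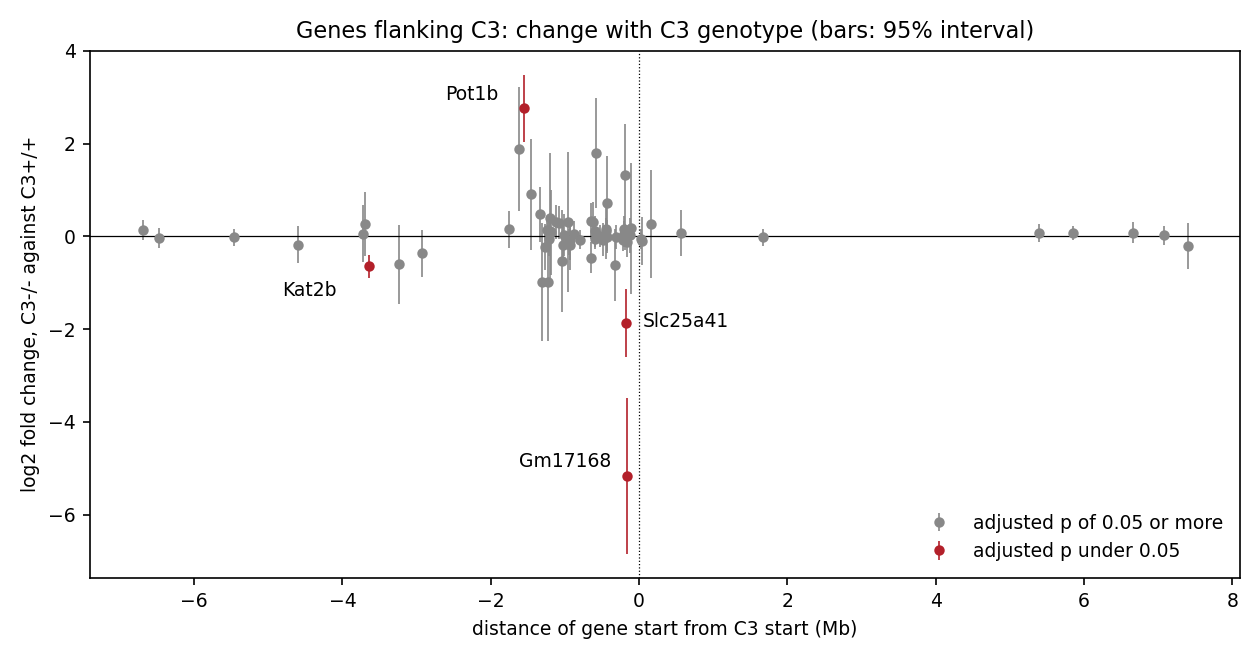
Log2 difference between C3-/- and C3+/+ mice (vertical axis, points with 95% intervals) for 67 genes by the distance of their start from that of C3 (horizontal axis, Mb). The 4 genes in red passed an adjusted p of 0.05. All lie before C3, as do 57 of the 67 genes, and the 10 genes after C3 sit between -0.20 and 0.26.

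Pot1b was the neighbour that rose. It encodes a telomere protein of the shelterin complex that binds the single-stranded end of the chromosome, and mice carry it beside a close relative, Pot1a, on chromosome 6. Pot1b (ENSMUSG00000024174) lies at chromosome 17, 55651951 to 55712628, on the minus strand, 1.55 Mb before C3. In run 1 it measured 0.0508 to 2.09 CPM in C3+/+ libraries (median 1.23, mean 1.20 ± 0.72, SD, n = 10) and 10.1 to 18.7 CPM in C3-/- libraries (median 13.5, mean 13.8 ± 3.46, SD, n = 8). In run 2 it measured 8.16 and 6.81 CPM in wildtype, 6.90 and 16.2 CPM in Gne+/-, 20.3, 22.4 and 22.0 CPM in C3-/- and 30.3 and 23.6 CPM in Gne+/- C3-/- libraries. Within each run every C3-/- library lay above every C3+/+ library, and run 2 was higher than run 1 in both genotypes. Pot1b was the only member whose groups did not overlap in both runs, where 0.0574% of all genes tested showed this in the higher direction and 0.0517% in the lower.

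The log2 difference of Pot1b was 2.77 (SE 0.35, 95% interval 2.04 to 3.49, edgeR adjusted p = 9.12e-06). Fitted within run 1 alone it was 3.60 (edgeR adjusted p = 3.04e-06) and within run 2 alone 1.37 (edgeR adjusted p = 0.00744). The direction and call were the same in both runs. Whether the size differs between the runs was not tested, and the C3+/+ libraries of run 1 held only 1 to 39 counts of Pot1b. Without the run term the log2 difference of Pot1b was 2.30 and the edgeR adjusted p 0.0528. Its relative Pot1a, at a mean of 24.8 CPM, differed by 0.00 (SE 0.13, 95% interval -0.26 to 0.26). Reads that the counting could not place between such close relatives are a limit on the Pot1b level, and the number of them was not used here.

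Kat2b, a lysine acetyltransferase that acts on histones and other proteins as a transcriptional coactivator, was the member at higher expression that fell. Kat2b (ENSMUSG00000000708) lies at chromosome 17, 53566861 to 53672720, on the plus strand, 3.64 Mb before C3. In run 1 it measured 73.5 to 161 CPM in C3+/+ (median 97.5, mean 112 ± 32.8, SD, n = 10) and 54.1 to 71.3 CPM in C3-/- libraries (median 61.5, mean 61.9 ± 5.54, SD, n = 8). In run 2 it measured 150.3 and 166 CPM in wildtype, 189 and 172 CPM in Gne+/-, 138, 124 and 146 CPM in C3-/- and 159 and 139 CPM in Gne+/- C3-/- libraries. The groups did not overlap in run 1 and overlapped in run 2, where the highest C3-/- value, 159 CPM, lay above the lowest C3+/+ value, 150.3 CPM. With Slc25a41, described next, Kat2b was 1 of 2 members wholly lower in run 1, where 0.138% of all genes tested were.

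Kat2b fell by 0.65 on the log2 scale (SE 0.12, 95% interval -0.89 to -0.41, edgeR adjusted p = 0.00162). The call rested on run 1: the log2 difference was -0.86 in run 1 alone (edgeR adjusted p = 0.00492) and -0.24 in run 2 alone (edgeR adjusted p = 0.749). Without the run term it was -0.47 and not called, with an adjusted p of 1.0.

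Slc25a41 and Gm17168 are the pair of called genes closest to C3, and they stand head to head. Slc25a41 (ENSMUSG00000011486; chromosome 17, 57032773 to 57041654, minus strand) encodes a carrier of the mitochondrial inner membrane that exchanges ATP-magnesium for phosphate. Gm17168 (ENSMUSG00000091390; chromosome 17, 57041775 to 57047143, plus strand) is annotated as an antisense RNA, begins 121 bases from the start of Slc25a41 and overlaps 3433 bases of the related carrier gene Slc25a23. Both fell in C3-/- retinas, while Slc25a23 did not pass the test.

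Slc25a41 measured 6.10 to 17.3 CPM in run 1 C3+/+ libraries (median 9.52, mean 9.83 ± 3.31, SD, n = 10) and 1.10 to 4.78 CPM in run 1 C3-/- libraries (median 2.79, mean 3.07 ± 1.38, SD, n = 8). In run 2 it measured 6.56 and 2.55 CPM in wildtype, 1.37 and 2.39 CPM in Gne+/-, 0, 0.413 and 1.00 CPM in C3-/- and 0.237 and 1.60 CPM in Gne+/- C3-/- libraries. The groups did not overlap in run 1, and in run 2 the highest C3-/- library lay above the lowest C3+/+ library. Slc25a41 fell by 1.86 on the log2 scale (SE 0.35, 95% interval -2.60 to -1.13, edgeR adjusted p = 0.00282), with -1.69 in run 1 alone (edgeR adjusted p = 0.00521) and -2.13 in run 2 alone, where it was not called (edgeR adjusted p = 0.768). Without the run term the difference was -1.89 and the edgeR adjusted p 0.195.

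Gm17168 was measured at few counts: 1002 over the 14 C3+/+ libraries, 1 of them at 0, and 52 over the 13 C3-/- libraries, 9 of them at 0. In wildtype it measured 0, 1.27, 0.28, 5.74 and 0.45 CPM in run 1 and 5.53 and 11.1 CPM in run 2, and in Gne+/- 0.37, 1.73, 0.82, 1.78 and 2.44 CPM in run 1 and 6.06 and 5.89 CPM in run 2. In C3-/- 6 of 7 libraries were at 0 and the other was at 0.295 CPM, and in Gne+/- C3-/- the values were 0, 0, 0 and 0.35 CPM in run 1 and 0.35 and 1.40 CPM in run 2. The groups did not overlap in run 2, where 1.15% of all genes tested lay wholly lower. In run 1 the wildtype libraries at 0 and 0.28 CPM lay within the range of the C3-/- and Gne+/- C3-/- libraries. The fitted log2 difference was -5.16 (SE 0.81, edgeR adjusted p = 2.31e-04) and is no exact fold, since 9 C3-/- libraries were at 0. It ranged from -6.42 to -4.87 as each library was left out, and was -6.42 without C3-/- mouse 9. It was called in run 2 alone (edgeR adjusted p = 0.00411) and not in run 1 alone, where the fitted difference was -5.80 (edgeR adjusted p = 0.0537).

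Reads were counted without strand, and reads that fall on more than 1 gene were not counted. Other genes overlap 63.9% of the span of Gm17168 and 25.95% of that of Slc25a23, including the 3′ end of Slc25a23. The share of their reads left out for this was not measured, and reads from the 2 strands cannot be told apart. Slc25a23 measured 12.2 to 31.2 CPM in C3+/+ and 13.1 to 25.3 CPM in C3-/- libraries over both runs, and its log2 difference was -0.13 (SE 0.15, 95% interval -0.44 to 0.19, edgeR adjusted p = 0.912).

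**Figure D2:**
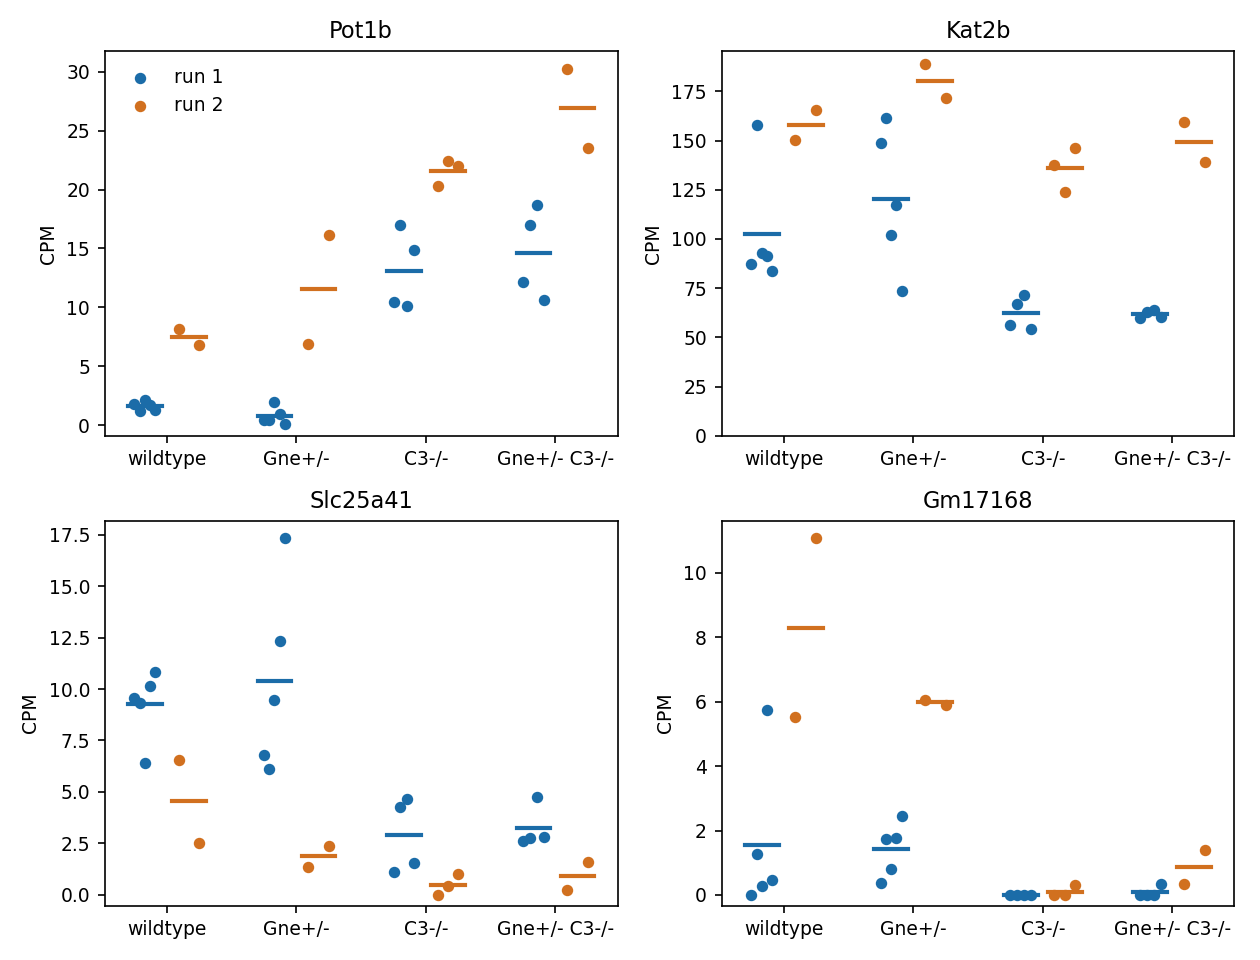
Level in CPM (vertical axis) of the 4 called neighbours in each of 27 libraries by genotype group (horizontal axis), with run 1 in blue, run 2 in orange and a line at the mean of each group in each run. Pot1b is higher in every C3-/- library than in every C3+/+ library of the same run, while the fall of Kat2b is separate by library in run 1 only.

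Of the 12 members nearest to C3, 6 on each side, Slc25a41 and Gm17168 passed the edgeR test, where 0.569% of all genes tested did. Gm17168 had reached the mean count through its C3+/+ libraries only. Before C3, in order towards it, Khsrp, an RNA-binding protein of mRNA decay and splicing, measured 20.6 to 41.6 CPM in C3+/+ and 17.8 to 43.3 CPM in C3-/- libraries of run 1, and its log2 difference was -0.01 (95% interval -0.29 to 0.27). Tubb4a, a beta-tubulin of neurons and oligodendrocytes, measured 9.44 to 55.3 CPM and 16.6 to 41.7 CPM in the same libraries, with a log2 difference of 0.02 (95% interval -0.36 to 0.40). Gm11110, an RNA annotated as long intergenic, measured 0 to 4.93 CPM and 0 to 4.95 CPM, with a difference of 0.18 and a wide interval of -1.24 to 1.59. The groups overlapped for all of these genes.

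After C3 the nearest gene is Gpr108, which encodes a membrane protein of the Golgi and starts 6499 bases past the end of C3. It measured 42.8 to 85.3 CPM in C3+/+ and 47.5 to 70.1 CPM in C3-/- libraries of run 1, and 48.3 to 58.7 CPM and 50.7 to 62.5 CPM in run 2, and its log2 difference was -0.05 (SE 0.10, 95% interval -0.26 to 0.16, edgeR adjusted p = 0.952). Trip10, an adaptor that bends membranes and binds actin regulators, differed by -0.09 (95% interval -0.61 to 0.43), and its level differed between runs far more than between genotypes: 0.301 to 8.21 CPM in run 1 and 30.6 to 50.1 CPM in run 2 in C3+/+ libraries. Adgre1, the macrophage receptor known as F4/80, stood close to the detection limit at 0.0753 to 2.72 CPM in C3+/+ and 0.699 to 5.88 CPM in C3-/- libraries of run 1, and its difference of 0.26 had an interval of -0.91 to 1.43.

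Farther out on that side, Cntnap5c, a neuronal surface protein of the contactin-associated family, differed by 0.08 (95% interval -0.41 to 0.56). Pdzph1, the most abundant member at a mean of 799.1 CPM, alone made up 26.8% of all member counts; it measured 588.1 to 977 CPM in C3+/+ and 543 to 886 CPM in C3-/- libraries of run 1 and differed by -0.02 (95% interval -0.20 to 0.16). Efna5, an ephrin that guides retinal axons to their targets, measured 71.7 to 121 CPM and 64.9 to 129 CPM in run 1 and differed by 0.06 (95% interval -0.13 to 0.26). None of the 10 members after C3 passed the edgeR test, DESeq2 and limma-voom called 0 of them, and 0 had an unadjusted edgeR p under 0.05. Of all genes tested, edgeR called 0.569% and 7.67% had such a p, so 0 of 10 does not set this side apart.

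**Figure D3:**
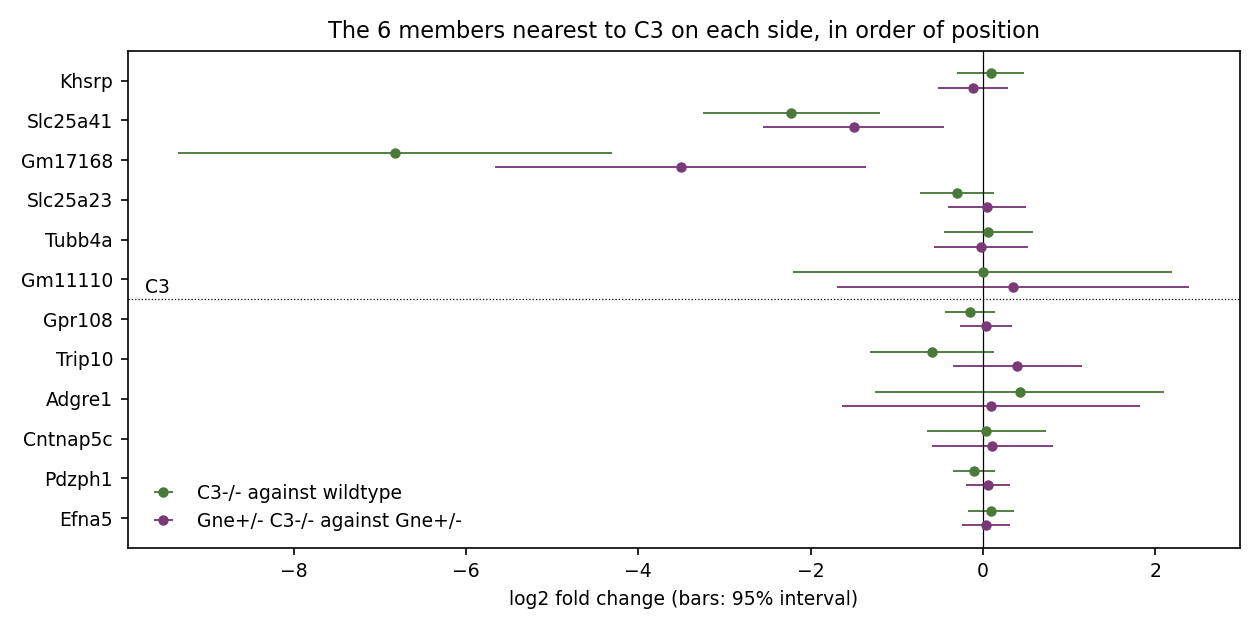
Log2 difference with 95% interval (horizontal axis) for the 6 members nearest to C3 on each side, from top to bottom in order along the chromosome, with the place of C3 dotted. Green points compare C3-/- with wildtype and purple points Gne+/- C3-/- with Gne+/-; of these 12 only Slc25a41 and Gm17168 have intervals that leave out 0 in both.

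Sorted by role, the calls fell in 2 of 6 lists and among the members in no list. The chromatin and transcription list had 13 members, of which Pot1b rose and Kat2b fell; the smallest p among the others belonged to Safb2, a scaffold attachment factor, with a log2 difference of 0.33 (edgeR adjusted p = 0.728). Of 8 members for mitochondria and metabolism, Slc25a41 fell, and Man2a1, a Golgi mannosidase that trims N-glycans, differed by -0.20 (95% interval -0.69 to 0.29). Among 15 members in no list, Gm17168 fell. No member passed in the lists of 11 neuronal and cytoskeletal, 13 trafficking, protein turnover and signalling, 4 immune or 3 zinc finger genes. The lists do not hold every member of a role: Cntnap5c, described above as a neuronal surface protein, is in none. In those 4 lists edgeR gave 0 members at an unadjusted p under 0.05 as well, and DESeq2 and limma-voom called 0. Of all genes tested, edgeR called 0.569% and 7.67% had such a p, so 0 in lists this short does not set them apart.

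The neuronal list held the smallest differences after the trafficking list, with a median size of 0.09 on the log2 scale. Plcl2, a phospholipase C-like protein at the far end of the window, measured 41.3 to 65.6 CPM in C3+/+ and 49.4 to 66.3 CPM in C3-/- libraries of run 2 and differed by 0.13 (95% interval -0.08 to 0.35). Sema6b, a semaphorin, differed by 0.30 (95% interval -0.06 to 0.65), and Shd, an adaptor protein, by -0.98 (95% interval -2.25 to 0.29) at 0 to 18.7 CPM. In the trafficking list Fbxl17, an F-box subunit of ubiquitin ligases, was measured most exactly: 99.9 to 142 CPM in C3+/+ and 107 to 138 CPM in C3-/- libraries of run 1, a difference of 0.08 with an interval of -0.07 to 0.23. Mydgf, a secreted growth factor, differed by -0.19 (95% interval -0.62 to 0.25) and Prr22 by 0.72 (95% interval -0.31 to 1.74).

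The immune and zinc finger lists were at low levels, and the differences there were measured poorly. Adgre4, a receptor of macrophages related to Adgre1, measured 0.0412 to 3.02 CPM in C3+/+ libraries and 0.225 to 5.36 CPM in C3-/- libraries over both runs, with a log2 difference of 0.90 (95% interval -0.29 to 2.10). Stap2, a signalling adaptor, differed by 0.39 and Tnfaip8l1 by -0.53, both with intervals that include 0 and span more than 2 on the log2 scale. Microglia markers, 8 of 8 found, summed to 23.6 to 78.2 CPM in C3+/+ and 28.3 to 55.4 CPM in C3-/- libraries; in whole tissue fewer cells of a type and less RNA per cell cannot be told apart. Among the zinc finger genes Zfp119a differed by 0.48, Zfp959 by -0.98 and Zfp119b by -0.23, with intervals that all include 0.

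Another 4 members had an unadjusted p under 0.05 and did not pass the edgeR test over all genes; they are named after their values were seen. Vmn2r118, a vomeronasal receptor gene that ends 26760 bases before Pot1b, measured 0 to 6.37 CPM in C3+/+ and 0.150 to 6.74 CPM in C3-/- libraries of run 1, with a log2 difference of 1.88 (95% interval 0.55 to 3.22, edgeR adjusted p = 0.348). Catsperd, a subunit of the sperm calcium channel, had a difference of 1.81 (95% interval 0.62 to 3.00, edgeR adjusted p = 0.255) at 0 to 5.37 CPM. Gm17949 had a difference of 1.32 (95% interval 0.22 to 2.42, edgeR adjusted p = 0.5001) and ranged from 0 to 7.22 CPM in C3+/+ and from 6.00 to 10.7 CPM in C3-/- libraries of run 1. Gm20219 had a difference of -0.46 (95% interval -0.78 to -0.13, edgeR adjusted p = 0.354). In each of these genes the groups overlapped in both runs. limma-voom, unlike edgeR and DESeq2, called Catsperd and Gm17949.

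Intervals of the members without a call varied in width, and a missing call does not show that a level was unchanged. Of the 63 uncalled members, 48 had a 95% interval of the log2 difference that lay within 1 on either side of 0, and 29 had one within 0.5. The wider limit would still hold a difference of the size called in Kat2b (-0.65). The 41 members at a mean of 10 CPM or more had a median size of difference of 0.08 and 2 calls, and the 26 under 10 CPM a median of 0.44 and 2 calls. Of all genes tested 0.569% were called. They were not split by level, so these values are not set against other genes of like level. Levels of the members ran from 1.13 to 799.1 CPM with a median of 13.2, close to the median of 12.8 over all genes tested. Levels also differed between the runs: 16 members were more than 2-fold higher in run 2 and 14 more than 2-fold lower, after adding 0.1 CPM to the mean levels. The same counts were not made over all genes tested, so they do not set the members apart.

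With 4 members called, there were too few calls to describe a trend with distance from C3. Over all genes tested 0.569% were called. Within 1 Mb of C3, 2 of 34 members were called (Slc25a41 and Gm17168), between 1 and 3 Mb 1 of 20 (Pot1b) and beyond 3 Mb 1 of 13 (Kat2b). The median differences in these bins were 0.00, 0.10 and 0.02 on the log2 scale. In windows of 5 Mb along chromosome 17, and counting all genes tested, 1 of 16 was called from 50 to 55 Mb, 4 of 64 from 55 to 60 Mb including C3, and 0 of 6 from 60 to 65 Mb. On either side of the members' window, 0 of 164 genes were called from 35 to 50 Mb and 1 of 89 from 65 to 80 Mb. Over the rest of the chromosome, outside the members and C3, 4 of 751 genes tested were called, near the share over all genes.

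The C3 difference was measured on each Gne background in separate mice: C3-/- against wildtype and Gne+/- C3-/- against Gne+/- share no library. In the first, 3 members were called (4.48%, with 0.167% of all genes): Pot1b at a log2 difference of 2.51 (SE 0.47, edgeR adjusted p = 0.00812), Slc25a41 at -2.22 (SE 0.49, edgeR adjusted p = 0.0476) and Gm17168 at a fitted -6.82 (SE 1.22, edgeR adjusted p = 0.00346). That last value rests on 5 counts in C3-/- mouse 9, the other 6 C3-/- libraries being at 0; it was -9.39 without that mouse and is no exact fold. In the second, 2 were called (2.99%, with 0.19% of all genes): Pot1b at 3.02 (SE 0.50, edgeR adjusted p = 0.00184) and Kat2b at -0.75 (SE 0.17, edgeR adjusted p = 0.0464). Kat2b in the first stood at -0.55 (edgeR adjusted p = 0.346), and Slc25a41 and Gm17168 in the second stood at -1.50 (edgeR adjusted p = 0.542) and -3.51 (edgeR adjusted p = 0.315). The sign was the same on both backgrounds for all 4 genes. They were picked by the mean of these 2 differences, which favours a shared sign, so the shared sign is no separate support. The calls of Slc25a41 in the first and Kat2b in the second lay near the threshold: Slc25a41 lost its call in 19 of 27 fits that left out 1 library and Kat2b in 20 of 27.

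The differences between the backgrounds were tested as an interaction. edgeR, DESeq2 and limma-voom each called 0 of the 67 members, where edgeR called 0 of 17409 genes; at an unadjusted p under 0.05 edgeR gave 3 members, Gm17168, Zfp119a and 1700061G19Rik, and 3.18% of all genes. The interaction interval was -0.86 to 1.87 for Pot1b, -0.67 to 0.28 for Kat2b and -0.70 to 2.15 for Slc25a41 on the log2 scale. For Gm17168 the interaction was 3.31 with an interval of 0.33 to 6.29, which leaves out 0, while it was not called over all genes (edgeR adjusted p = 0.9998). Across the 67 members the 2 C3 differences had a Pearson r of 0.73, and 0.42 without the 4 called genes, where all genes tested gave 0.195; 43 members (64.2%) had the same sign on both, where all genes tested gave 56.6%. These are descriptions across genes that share libraries, and genes are not independent replicates.

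**Figure D4:**
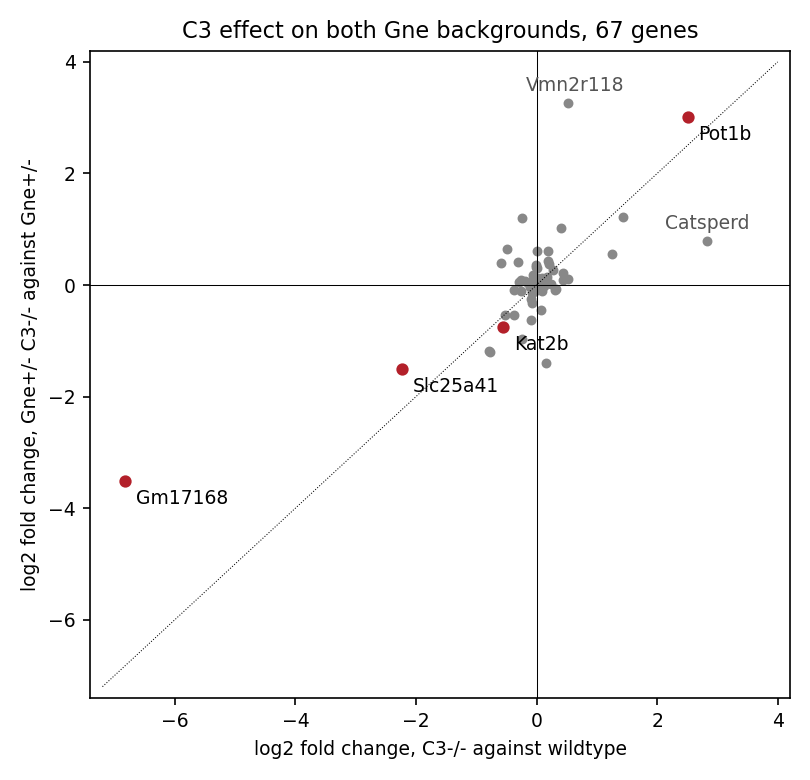
Log2 difference of Gne+/- C3-/- against Gne+/- (vertical axis) by that of C3-/- against wildtype (horizontal axis) for 67 neighbours of C3, with the line of equal differences dotted. The 4 genes in red lie in the same direction on both axes, which their choice by the mean of both differences favours. Vmn2r118 and Catsperd, in grey, differ mainly on 1 of the axes and were not called.

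The Gne genotype left the neighbours of C3 without a call. In Gne+/- against Gne+/+ over both C3 genotypes, edgeR called 0 of 67 members and 1 gene in all (0.00574%), Gne itself, and DESeq2 and limma-voom called 0 members; 1 member, Gm17168, had an unadjusted p under 0.05 (log2 difference 1.45, 95% interval -0.03 to 2.93), where 3.3% of all genes did. The log2 difference was 0.04 for Pot1b, 0.12 for Kat2b and 0.08 for Slc25a41. St6gal2, a member chosen after its values were seen because it encodes a sialyltransferase of the pathway that Gne feeds, measured 4.74 to 17.1 CPM in wildtype, 5.64 to 13.9 CPM in Gne+/-, 8.33 to 18.8 CPM in C3-/- and 8.61 to 17.6 CPM in Gne+/- C3-/- libraries. It differed by -0.09 with the Gne genotype (95% interval -0.49 to 0.30) and by 0.15 with the C3 genotype (95% interval -0.25 to 0.55), and all 4 groups overlapped.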

How the data were processed

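The authors deposited unnormalized read counts for each gene, 1 library per mouse. Alignment used STAR 2.7.3a, per the submitters' processing notes, and reads were counted with featureCounts 2.0.3 over exon and gene features of Ensembl release 101 (GRCm38), without strand, per the file headers. The members and the role lists were chosen with earlier results of these data known. edgeR 4.0.16 (filterByExpr with a minimum count of 10, TMM, robust quasi-likelihood fit, 22 residual degrees of freedom) in R 4.3.3 fitted 4 genotype groups and the sequencing run to all 27 libraries; all 67 members were among the 17409 genes tested. C3-/- against C3+/+ is the mean of the differences on both Gne backgrounds. Intervals are the log2 difference with its SE times the t quantile at those degrees of freedom, so they can be slightly wider than the test's own. The script was tested on simulated data. The labels name a separate mouse per library. Genes named are called members, the 6 nearest on each side of C3, the 3 smallest p of each role list, the outermost members, C3 and Gne; others are marked. Alternatives were DESeq2 1.42.0, limma-voom (limma 3.58.1), other size factors and filters, no run term, single runs, a Y-linked covariate, a mouse number block and leaving out each library. The labels do not say whether equal mouse numbers mark paired samples.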

Additional observations from a re-analysis of the deposited data

Results flagged for a closer look

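In 11 of 120 sets of values, each a gene named by the rule within 1 genotype group, 1 library stood apart from the rest of its group. The measure was the gap to the nearest value relative to the range. Its limit is set to flag about 5% of sets drawn from 1 population. The groups here mixed both runs, and some values were at 0, so the number of flags cannot be set against that rate. Among the called neighbours, Gne+/- mouse 8 had 16.2 CPM of Pot1b (others 0.0508 to 6.90), C3-/- mouse 9 had 0.295 CPM of Gm17168 (others 0) and Gne+/- C3-/- mouse 8 had 1.40 CPM of Gm17168 (others 0 to 0.355). All 3 libraries are of run 2. Among uncalled neighbours, Gne+/- mouse 5 had 55.3 CPM of Tubb4a (others 21.2 to 33.8), C3-/- mouse 1 had 66.5 CPM of Gpr108 (others 47.5 to 53.4), and Gne+/- C3-/- mouse 3 had 5.88 CPM of Adgre1 (others 0.0390 to 1.45). Wildtype mouse 2 had 3.02 CPM of Adgre4 (others 0.0412 to 1.13), C3-/- mouse 6 had 5.48 CPM of Tnfaip8l1 (others 0.306 to 0.643) and Gne+/- C3-/- mouse 7 had 18.7 CPM of Shd (others 0 to 6.16). C3 itself was 285.1 CPM in Gne+/- mouse 5 (others 75.9 to 128.5) and 3.60 CPM in C3-/- mouse 9 (others 0 to 1.28).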

How the results depend on the processing

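None of 1444 alternative values reversed a called result (45 changes of sign were in uncalled values of 12 genes), and the median difference of all genes stayed between -0.024 and 0.024 under each alternative. The call of all 4 members in C3-/- against C3+/+ held with DESeq2, other size factors, limma-voom, both other filters, the Y-linked covariate, the non-robust fit and each library left out. Without the run term 1 member was called and in run 2 alone 2; the cause was not tested. Genes called in that comparison, 99, became 171 with DESeq2, 447 with no filter, 176 with limma-voom, 43 without the run term and 34 in run 2 alone. In C3-/- against wildtype, 29 genes became 63 with DESeq2, 91 with no filter, 72 with limma-voom and 13 without the run term, and 3 members became 0 without the run term, 1 in run 1 alone and 1 in run 2 alone. In Gne+/- C3-/- against Gne+/-, 33 genes became 87 with DESeq2, 306 with no filter, 59 with limma-voom, 13 without the run term and 11 in run 2 alone; 2 members became 5 with no filter, 0 without the run term and in run 2 alone, and 1 with over 1 CPM in 6 libraries, with the Y-linked covariate, in the non-robust fit and in run 1 alone. The interaction called 30 genes with no filter and 4 in run 2 alone, and the Gne comparison 2 genes with DESeq2, 34 with no filter, 0 without the run term and 5 in run 2 alone. Leaving out each library gave 86 to 120 genes and 4 to 5 members for C3-/- against C3+/+, 25 to 35 genes and 2 to 3 members against wildtype, 20 to 40 genes and 1 to 2 members in Gne+/- (20 without Gne+/- C3-/- mouse 3), 0 genes and 0 members for the interaction, and 1 gene and 0 members for Gne. Correlations were -0.16 to 0.256 over 31 pairs with the same mouse number (median -0.0421, 4 above 0.1). Over 120 other pairs the median was -0.0302. Of 26 libraries, 10 correlated best with a library of their own number, and the number that chance gives was not computed. Pairing by mouse number was therefore not excluded. With the numbers as a replicate block, 96 genes and 4 members were called for C3-/- against C3+/+, 23 genes and 1 member against wildtype, and 27 genes and 1 member in Gne+/-. Depth was not varied; the median size of the log2 difference was 0.44 in the 26 members under 10 CPM and 0.08 in the others.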
